A study of Gallus gallus with 4 samples.

Results

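Peaks of HIF1α binding assigned to cell adhesion and axon guidance genes were taken from the HIF1α peak list of embryonic chick lens cells. A peak was a member when its nearest gene symbol began with the prefix of a listed family, which were the cadherins and protocadherins, catenins, immunoglobulin-type adhesion molecules, synaptic adhesion molecules, teneurins and FLRT proteins, adhesion G protein-coupled receptors, and the Slit, netrin, semaphorin and Eph-ephrin guidance systems. One Eph receptor was left out of the rule and of all family counts, and is not analysed here. All distances to the gene were accepted. This gave 286 of the 8375 peaks (3.41%), nearest to 100 gene symbols on 19 of the 34 chromosomes in the list, and 26 of the 29 prefixes were found. Prefixes are a rule on names, so CTNNAL1, a catenin relative, and UNC50, which is unrelated to the netrin receptors, were included as they stood.

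Binding was mapped by CUT&RUN, a method in which an antibody guides a nuclease to a protein in permeabilized cells and the short DNA fragments cut loose are sequenced. The 2 HIF1α libraries and the 2 IgG control libraries came from 2 pools of 500000 primary lens cells of White leghorn embryos at embryonic day 10, each pool shared between the antibodies. All libraries were from cells given 1 mM dimethyloxalylglycine (DMOG), which stabilizes HIF1α, for 4 h. Untreated cells were not part of the comparison, so the values compare the HIF1α antibody with IgG. The cells were a primary culture, and a peak list holds no expression values with which the lens label could be checked. The authors pooled the libraries of each antibody before peak calling, so each peak has a single value with no replicate error.

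Cadherins hold neighbouring cells together by binding their own kind across the gap between membranes, and catenins tie their cytoplasmic tails to the actin cytoskeleton. Guidance systems work as ligand and receptor pairs. Slits signal through Robo receptors, netrins through DCC and UNC5 receptors, semaphorins through plexins and neuropilins, and ephrins through Eph receptors. In the lens, N-cadherin (CDH2) and NCAM1 are known for joining epithelial and fiber cells, and ephrin-A5 (EFNA5) for keeping fiber cells in ordered contact. Roles given here are known mainly from mouse and other vertebrates. HIF1α binds DNA as a dimer with ARNT at hypoxia response elements, which occur both near promoters and far from them.

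The first question was where these HIF1α-DNA binding complexes lay relative to genes. The distances are those deposited, measured from the peak to the nearest transcription start site (TSS). A distance of 3 kb or less was found for 7 of the 286 peaks (2.45%, Wilson 95% confidence interval 1.19 to 4.97), compared with 13.0% of all 8375 peaks. Another 26 peaks were 3 to 10 kb away (9.09% against 17.8%), so that 33 lay within 10 kb (11.5% against 30.8%). A total of 137 lay between 10 and 100 kb (47.9% against 52.1%), and 116 lay beyond 100 kb (40.6%, 95% confidence interval 35.0 to 46.3, against 17.1%). Beyond 300 kb there were 30 peaks, 10.5% of these and 2.44% of all. The peak covered the TSS in none of the 286, which allows a share of up to 1.33%. It did so in 81 of all peaks (0.967%), a share within that limit. The median distance was 70.2 kb (95% confidence interval of the median 58.1 to 92.5), and that of all peaks was 23.6 kb (22.6 to 24.8). Intervals cover counting error only and treat peaks as independent, although peaks of the same gene share a locus. The length of each gene and its spacing from its neighbours were not analysed here, nor were exons and introns.

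**Figure D1:**
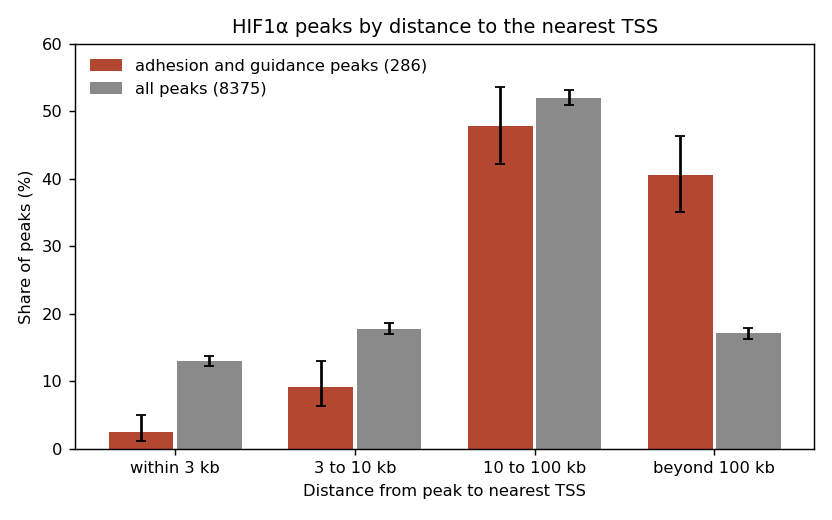
Share of peaks (%) in 4 classes of distance to the nearest TSS, for the 286 adhesion and guidance peaks and for all 8375 peaks, with Wilson 95% confidence intervals as error bars. The adhesion and guidance peaks sit lower within 3 kb (2.45% against 13.0%) and higher beyond 100 kb (40.6% against 17.1%).

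Peak strength was close to that of the list as a whole. The median fold enrichment of HIF1α over background was 4.00 (95% confidence interval 3.92 to 4.26), and that of all peaks was 3.92 (3.92 to 3.95). The pileup, the number of HIF1α fragments over the summit, had a median of 9 in both, and 60.1% of these peaks against 58.9% of all had a pileup of 7 to 9 fragments. Such a height is imprecise, since a pileup of 7 has an exact Poisson 95% interval of 2.81 to 14.4 fragments and a pileup of 10 has one of 4.80 to 18.4. A −log10 q of 3 or more, where q is the false discovery rate given by the peak caller, was reached by 83 peaks (29.0%, Wilson 95% confidence interval 24.1 to 34.5, against 26.5% of all). Background at the summit, the rate the peak caller expected there and not a count of IgG fragments, was obtained from pileup and fold enrichment. It was at its lowest value of 1.30 fragments for 144 peaks (50.3% against 49.7%). It exceeded 3 times that value, called high IgG background here, for 7 peaks (2.45%, 95% confidence interval 1.19 to 4.97, against 7.94%).

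A fold enrichment under 3 was found for 5 of these peaks (1.75% against 6.54%) and one of 5 or more for 33 (11.5% against 11.2%). Pileups of 100 or more were found for 2 (0.699% against 2.46%). A fold enrichment of 10 or more was reached by 3 (1.05% against 0.394%). The strongest was nearest to ADGRB1, a receptor for apoptotic cells on phagocytes, on chromosome 2 from 147551998 to 147552353 and 3925 bp from the TSS. Its pileup was 670 fragments (exact Poisson 95% interval 620 to 723) over a background of 24.0, a fold enrichment of 26.8, and it ranked second of 8375 by −log10 q. The PCDH9 peak on chromosome 1 from 160631863 to 160631981 lay 188 kb from its TSS. It had a pileup of 39 (27.7 to 53.3) over a background of 1.30, 17.4-fold enrichment and −log10 q 38.8. Thus it was high with the background at its lowest value, unlike the ADGRB1 peak. The CDH13 peak on chromosome 11 from 15927891 to 15928197 lay at 38.3 kb, with a pileup of 48 (35.4 to 63.6) over a background of 3.54, 10.8-fold enrichment and −log10 q 32.4. PCDH9 is a protocadherin of the nervous system, and CDH13 is a cadherin anchored by a lipid with no cytoplasmic tail.

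Besides ADGRB1, 6 peaks had a high IgG background. The SEMA3C peak on chromosome 1 from 11122249 to 11122439 held 52 fragments against 6.37 in the background, a fold enrichment of 7.20. A pair of SEMA3E peaks spanned 4.23 kb, with pileups of 94 and 104 over backgrounds of 35.0 and 69.0 and fold enrichments of 2.64 and 1.50. These semaphorins are secreted guidance signals of the same class, and this SEMA3E pair was high in HIF1α and in background. The FLRT2 peak had a pileup of 35 over 8.13 (fold enrichment 3.94), the LRFN5 peak 31 over 10.96 (fold enrichment 2.67) and the ADGRB3 peak 28 over 12.0 (fold enrichment 2.23). The other 279 peaks had a pileup of 7 to 15, apart from the PCDH9 and CDH13 peaks above.

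**Figure D2:**
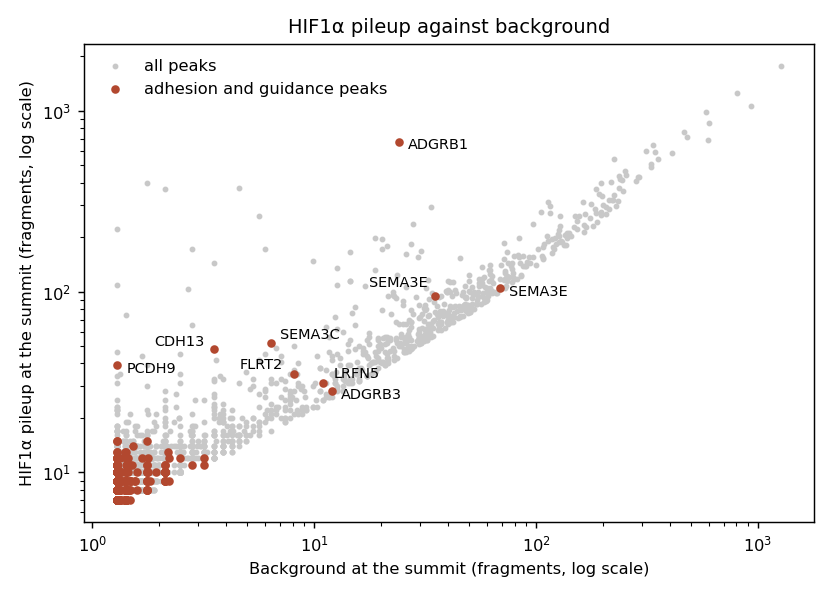
HIF1α pileup against background at the summit, in fragments on log scales, with all peaks in grey, adhesion and guidance peaks in red and the highest of these named. Most red points lie at 7 to 15 fragments over a background near 1.30, while ADGRB1 stands at 670 over 24.0 and PCDH9 at 39 over 1.30.

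The next question was how many genes of each family were the nearest gene to a HIF1α peak. In the RefSeq gene table, 188 protein-coding symbols met the rule, and 99 of them (52.7%, Wilson 95% confidence interval 45.5 to 59.7) were nearest to 1 or more peaks, compared with 25.6% of all 14357 protein-coding symbols. A peak within 3 kb was found for 7 of the 188 (3.72%, 95% confidence interval 1.82 to 7.48), compared with 5.61% of all. The share of genes with a peak was thus higher than that of all genes over all distances and not near promoters. Several peaks per gene were also common. Of the 100 symbols, 62 were nearest to 2 or more peaks (62.0%, against 36.2% of all 4869 symbols in the list) and 22 to 5 or more (22.0% against 3.80%). A gene far from its neighbours is nearest to more of the genome, and this share was not measured here. Genes were matched to the table by name, and a gene whose name did not match counts as having no peak. How many names failed to match over the whole list was not counted.

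**Figure D3:**
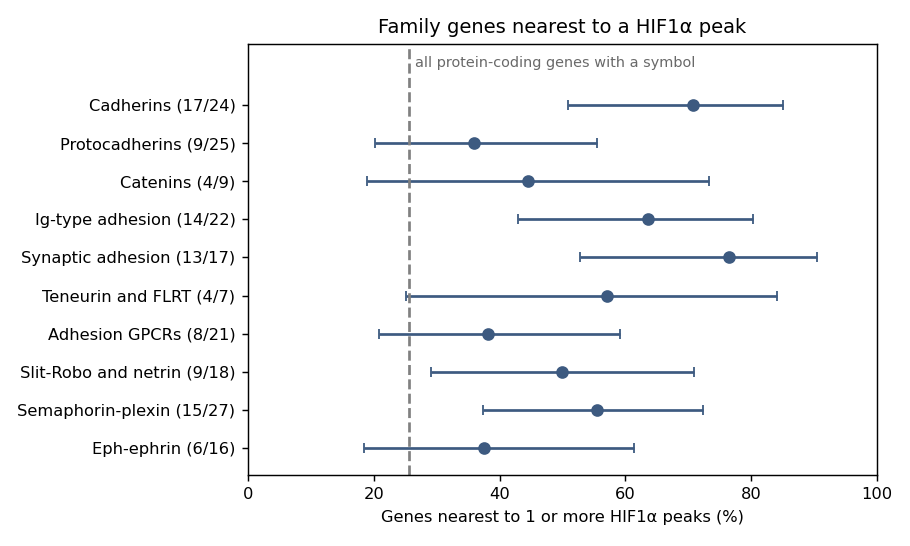
Share (%) of the protein-coding genes of each group shown that were nearest to 1 or more HIF1α peaks, as points with Wilson 95% confidence intervals, and numbers of genes in brackets. The desmogleins (0 of 2 genes) are not plotted. The dashed line marks all protein-coding genes at 25.6%, and cadherins (17 of 24) and synaptic adhesion genes (13 of 17) sit highest.

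Cadherins gave 42 peaks at 17 of the 24 genes in the table. The median distance was 37.6 kb and 13 peaks (31.0% against 17.1% of all peaks) lay beyond 100 kb. CDH2, the N-cadherin of lens epithelium and fibers, was nearest to 6 peaks on chromosome 2. Their pileups ran from 8 to 10 and their fold enrichments from 3.52 to 4.79, and the strongest, from 104803254 to 104803418, was 27.6 kb from the TSS with a −log10 q of 3.07. From the TSS, 4 of these lay on the side of lower coordinates and 2 on the other, the nearest at 18.1 kb, and 3 of them fell within 11.2 kb.

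CDH4, the retinal or R-cadherin, also had 6 peaks, of which 5 reached a −log10 q of 3 or more. Its strongest peak, on chromosome 20 from 7392763 to 7392891, lay 14.9 kb from its TSS with 12 fragments and 5.66-fold enrichment. CDH6, a cadherin of kidney and neural crest, had a peak of 15 fragments with 6.96-fold enrichment and −log10 q 7.73 at chromosome 2 from 69305153 to 69305316, 58.6 kb from the TSS. CDH5, the cadherin of blood vessel endothelium, had 5 peaks between 20.9 and 283 kb from the TSS, all on the same side of it, and none exceeded a fold enrichment of 3.92. CDH15, the cadherin of muscle, had a peak 326 bp from the TSS, the closest of all 286. That peak, on chromosome 11 from 18561890 to 18561999, held 10 fragments against 2.12 in the background, 3.52-fold enrichment and −log10 q 1.81. Cadherin genes with no peak in the list were CDH1, the epithelial cadherin, CDH3, CDH12 and 4 cadherin-related genes (CDHR1, CDHR2, CDHR3 and CDHR5).

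Catenins gave 8 peaks at 4 of 9 genes. CTNNA1, CTNNB1 and CTNND1, which make up the catenin complex of most epithelia, had none. Their relatives did, with 2 peaks at the neural form CTNNA2 (fold enrichments 4.79 and 3.31, at 100.0 and 58.1 kb), 1 at the neural form CTNND2 (4.79, at 47.7 kb, shared with unnamed genes) and 1 at CTNNA3, known from heart and testis (3.91, at 7491 bp). The other 4 were at CTNNAL1, of which 3 lay within 8.52 kb and the strongest, on chromosome 2 from 88480925 to 88481074, had 11 fragments, 4.86-fold enrichment and −log10 q 3.42.

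The group of immunoglobulin-type adhesion genes gave 35 peaks at 14 genes, which were contactins, contactin-associated proteins, DSCAM genes, nectins, CADM2 and NCAM1. Of these peaks, 6 lay beyond 100 kb (17.1%, 95% confidence interval 8.10 to 32.7), the same share as in all peaks (17.1%). The contactin-associated proteins were included by the CNTN prefix and are not of the immunoglobulin type. They had 1 peak at CNTNAP2, 1 at CNTNAP4 and 3 at CNTNAP5. The table held 22 genes with the prefixes of this group. Among them were DSC1, DSCC1 and DSCR3, which share the DSC prefix and are not of the immunoglobulin type either. At that prefix, peaks were found for DSCAM and DSCAML1 alone, and there was no peak at the desmosomal genes DSC1, DSG2 and DSG4. DSCAM, a receptor that keeps branches of the same neuron apart, had 6 peaks on chromosome 1 within 94.5 kb of the TSS, 3 on either side, with fold enrichments of 3.48 to 4.65. The DSCAML1 peak on chromosome 24 from 5374955 to 5375094 was stronger, with 13 fragments, 6.09-fold enrichment and −log10 q 5.71, at 24.8 kb.

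Contactins are membrane-anchored adhesion proteins of axons. CNTN5 had a peak of 15 fragments on chromosome 1 from 185522587 to 185522778, at 136 kb from the TSS, with 5.78-fold enrichment and −log10 q 5.90. CNTN3 had 4 peaks, 3 of them with fold enrichments of 4.79 to 5.31. NCAM1, which joins lens cells by self-binding, had 2 weak peaks on chromosome 24, at 87.9 and 109 kb, with fold enrichments of 3.32 and 2.87 and the same −log10 q of 1.38. The nectins, partners of cadherins at junctions, had 3 peaks each. For NECTIN1 the strongest, on chromosome 24 from 4087562 to 4087670, lay 26.4 kb from its TSS with a fold enrichment of 4.56, and for NECTIN3 the fold enrichments ran from 3.48 to 4.35. CADM2 had a peak 760 bp from the TSS, on chromosome 1 from 94975855 to 94975974, with 9 fragments, 4.35-fold enrichment and −log10 q 2.38.

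Protocadherins gave 31 peaks at 9 of 25 genes. Of the peaks, 20 (64.5%, 95% confidence interval 46.9 to 78.9, against 17.1% of all peaks) lay beyond 100 kb. The median distance was 246 kb (77.4 to 350), and none was within 3 kb, which allows up to 11.03%. The gene with most peaks was PCDH10, a protocadherin of neural circuits, with 10 on chromosome 4. All 10 lay between 278 and 660 kb from the TSS on its lower-coordinate side, with pileups of 7 to 10 and fold enrichments of 3.48 to 4.56, and none reached a −log10 q of 3. PCDH17 had 5 peaks from 5166 bp to 465 kb, of which the strongest, on chromosome 1 from 164854635 to 164854774, lay 7475 bp from its TSS with 12 fragments and 5.66-fold enrichment. PCDH18 had 3 peaks with fold enrichments of 4.35 to 4.79, and PCDH7 had 4 with 3.52 to 4.72. The clustered protocadherins give neurons individual identities. Among them, PCDHA4 had a peak on chromosome 13 from 1498435 to 1498545, 6096 bp away (fold enrichment 4.03). PCDHGC3 had one on the same chromosome from 2616168 to 2616305, 7728 bp away (4.79). Where similar genes lie side by side, a peak is assigned to a member by distance alone.

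**Figure D4:**
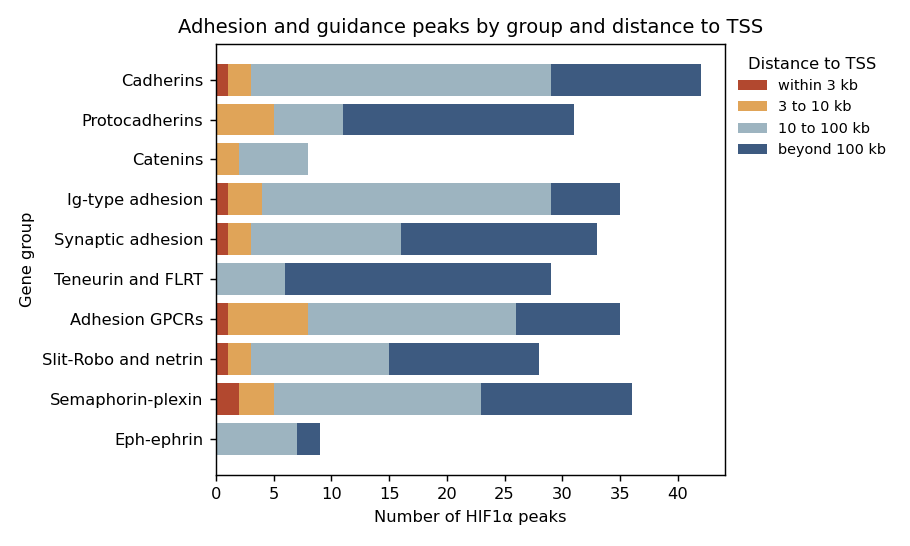
Number of HIF1α peaks in each of 10 gene groups, divided by distance to the nearest TSS. Protocadherins (20 of 31 peaks) and teneurins with FLRT2 (23 of 29) have most of their peaks beyond 100 kb. All 8 catenin peaks are within 100 kb, which still allows a share beyond it of up to 32.4%, against 17.1% of all peaks.

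Synaptic adhesion genes, whose products join the membranes on either side of a synapse, gave 33 peaks at 13 of 17 genes. Of these peaks, 17 lay beyond 100 kb (51.5% against 17.1% of all peaks). NRXN3, a presynaptic neurexin, had a peak at 4681 bp with a fold enrichment of 4.33. The postsynaptic partners of neurexins are neuroligins and LRRTM proteins. NLGN3 had 3 peaks within 15.4 kb on chromosome 4, at 1372, 5037 and 10163 bp from the TSS. Their pileups were 11, 10 and 8 and their fold enrichments 5.22, 4.71 and 3.25, so that the peak nearest the TSS, from 2352725 to 2352845, was the highest, with a −log10 q of 3.88. NLGN1 had 4 peaks, which also carried the symbol NAALADL2, with a highest fold enrichment of 5.56 on chromosome 9 from 18846617 to 18846726. LRRTM1 had 4 peaks between 246 and 570 kb from the TSS, all on the same side, and the LRRTM4 peak at 96.1 kb had a fold enrichment of 5.22. The LRFN2 peak on chromosome 3 from 28245046 to 28245193 had 13 fragments, 6.09-fold enrichment and −log10 q 5.71, at 104 kb. Among SLITRK genes the strongest was at SLITRK1, on chromosome 1 from 152567478 to 152567684, with a fold enrichment of 4.87 at 43.3 kb.

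Teneurins, FLRT proteins and latrophilins bind each other across cell contacts, and FLRT proteins also bind UNC5 receptors. TENM3 had the most peaks of the 100 symbols, with 12 on chromosome 4. All lay on the higher-coordinate side of the TSS between 242 and 710 kb from it, at pileups of 7 to 10 and fold enrichments of 3.37 to 4.79, and 4 of them fell within 11.2 kb, from 41196639 to 41207857. The strongest by −log10 q, tied at 3.07 with 3 others, was from 40851724 to 40851918. TENM2 had 10 peaks on chromosome 13 between 43.4 and 576 kb from the nearer of 2 start sites, with fold enrichments of 3.25 to 4.35 and no −log10 q of 3 or more. Teneurin and FLRT2 peaks together numbered 29, with a median distance of 242 kb (151 to 430). Beyond 100 kb lay 23 (79.3%, 95% confidence interval 61.6 to 90.2, against 17.1% of all peaks). The share of the 29 at a −log10 q of 3 or more was 17.2% (5 peaks), against 26.5% of all peaks. FLRT2 had 6 peaks on chromosome 5, and except for that from 42432586 to 42432887, with high IgG background, its pileups were 7 to 9. TENM4, FLRT1 and FLRT3 had none in the list.

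Adhesion G protein-coupled receptors gave 35 peaks at 9 symbols, 8 of which are among the 21 genes in the table. Of these peaks, 15 (42.9% against 26.5% of all peaks) had a −log10 q of 3 or more. Beyond 100 kb lay 9 (25.7% against 17.1%). The latrophilins ADGRL3 and ADGRL2 had 6 and 5 peaks. ADGRL3 peaks had pileups of 7 to 12, and 4 of the 6 reached a −log10 q of 3, the strongest on chromosome 4 from 48031902 to 48032048 with a fold enrichment of 5.66 at 48.5 kb. ADGRL2 had a peak 1919 bp from the TSS, on chromosome 8 from 17964877 to 17964991, with 9 fragments and 4.35-fold enrichment. ADGRL4, a related receptor of endothelium, had 8 peaks on chromosome 8, the highest with a fold enrichment of 5.81 at 65.5 kb. The orphan receptor ADGRA1 had a peak of 15 fragments with 6.96-fold enrichment and −log10 q 7.73 on chromosome 6 from 22822142 to 22822356, and ADGRG6, known in mouse and zebrafish for myelination, had one with a fold enrichment of 5.80 at 6124 bp.

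Guidance by Slit and netrin signals was covered by 28 peaks, counting the UNC50 peak. The receptor ROBO1 had 9 peaks on chromosome 1, between 22.7 and 316 kb from the nearest of 3 start sites, while ROBO2, ROBO3 and ROBO4 had none. Of the ROBO1 peaks, 8 had a pileup of 7 to 9, and the strongest, from 97515740 to 97515872, had 11 fragments, 5.22-fold enrichment and −log10 q 3.88. Its ligands SLIT2 and SLIT3 had 2 peaks each, with fold enrichments of 3.32 to 4.35. The stronger SLIT2 peak, on chromosome 4 from 75479528 to 75479644, lay 254 kb from its TSS. Both SLIT2 peaks also carried the symbol of the microRNA gga-mir-218-1.

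Among netrin receptors, UNC5C had 5 peaks on chromosome 4, all on the same side of the TSS at 169 to 308 kb, and the nearest, from 59006395 to 59006521, had 14 fragments, 5.95-fold enrichment and −log10 q 5.82. UNC5D had 6 peaks on chromosome 22 within 44.0 kb of a TSS. That from 2089592 to 2089717 lay at 1632 bp with 9 fragments and 4.35-fold enrichment, and the highest fold enrichment of the 6 was 4.97. The secreted netrin gene NTN4 and the membrane-anchored netrin-G genes NTNG1 and NTNG2, which are not ligands of UNC5 receptors, each had 1 peak of 8 fragments with a fold enrichment of 3.92, the NTN4 peak on chromosome 1 from 45639557 to 45639703 at 25.6 kb. No peak in the list was assigned to NTN1, UNC5A or UNC5B.

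Semaphorins, plexins and neuropilins gave 36 peaks at 15 of 27 genes. The secreted class 3 semaphorins, which mostly bind neuropilin and plexin together, had most of the ligand peaks. SEMA3A had 6 peaks on chromosome 1 between 56.0 and 194 kb, of which the strongest, from 9204353 to 9204689, had 12 fragments, 5.38-fold enrichment and −log10 q 4.39. SEMA3C and SEMA3E had the high-background peaks given above. SEMA4G had a peak 1632 bp from the TSS, on chromosome 6 from 24049896 to 24050027, with 8 fragments and 3.92-fold enrichment. On the receptor side, NRP2 had a peak 629 bp from the TSS, on chromosome 7 from 12743762 to 12743960, with 9 fragments, 4.35-fold enrichment and −log10 q 2.38. PLXNA4 had 5 peaks, which also carried the symbol gga-mir-6621, of which those at 31.1 kb, on chromosome 1 from 2855811 to 2856032, and at 106 kb were tied as the strongest with a fold enrichment of 4.79. The other plexin peaks, at PLXNA1, PLXNB2, PLXNB3, PLXNC1 and PLXND1, had pileups of 7 to 10. NRP1 and PLXNA2 had none.

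Eph-ephrin genes gave the fewest guidance peaks, with 9 at 6 of 16 genes. None was within 10 kb, which at 9 peaks allows a share of up to 29.9%, close to the 30.8% of all peaks. EFNA5, the ephrin with a known part in lens fiber packing, had 3 peaks on chromosome Z with pileups of 12, 10 and 7. The strongest, from 48162536 to 48162653, was 29.9 kb from the TSS with 5.66-fold enrichment and −log10 q 4.76. EPHA4 had 2 peaks 303 bp apart on chromosome 9, with fold enrichments of 4.78 and 4.35 at 15.6 and 15.2 kb. Ligand EFNB2 had a peak on chromosome 1 from 142579495 to 142579640 with a fold enrichment of 3.92 at 66.4 kb. None of EPHB1, EPHB2, EPHB3 and EPHB6 had a peak.

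Taken by distance, the 7 peaks within 3 kb were those of CDH15, NRP2, CADM2, NLGN3, UNC5D, SEMA4G and ADGRL2. Their pileups were 8 to 11 and their fold enrichments 3.52 to 5.22, and the NLGN3 peak alone reached a −log10 q of 3. They thus came from 7 genes of 7 families, with no gene represented more than once.

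Chromosome 4 held 61 of the 286 peaks (21.3%, Wilson 95% confidence interval 17.0 to 26.4), compared with 9.06% of all peaks. They belonged to 14 genes, and TENM3 and PCDH10 held 22 of them. Chromosome 1 held 68 (23.8% against 18.9%), chromosomes 1 to 5 together 185 (64.7% against 58.7%), microchromosomes 61 (21.3% against 23.8%) and chromosome Z 4 (1.40% against 2.85%). A single gene symbol was given for 269 peaks (94.1% against 93.0%). The other 17, at PLXNA4, ADGRA3, NLGN1, SLIT2 and CTNND2, carried several, and could not be assigned to the adhesion or guidance gene alone.

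To see how the peaks were arranged around a gene, the position of the TSS was derived from the deposited distances of 2 or more peaks of the same transcript, which gave a unique site for 1637 of 1661 transcripts. This placed 234 of the 286 peaks on a side of their TSS. Of 28 genes with 4 or more such peaks, 7 had all of them on the same side, namely TENM3 (12), PCDH10 (10), CDH5, UNC5C and SEMA3A (5 each), and LRRTM1 and ADGRA3 (4 each). For SEMA3A and ADGRA3 a further peak belonged to another transcript and could not be placed. The other 21 genes had peaks on both sides. The same count was not made over all genes of the list, so the 7 cannot be set against it. A peak on the far side of a neighbouring TSS is assigned to that neighbour, so peaks can be absent on a side for that reason too. The direction of transcription was not used.

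**Figure D5:**
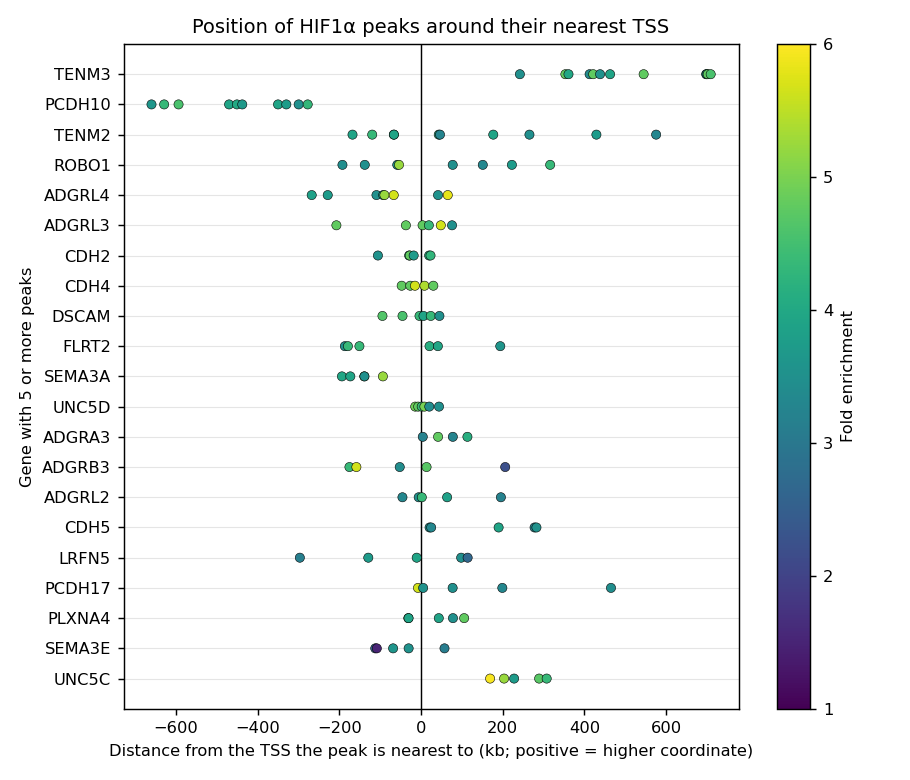
Distance in kb of each placed peak from the TSS it is nearest to, for 21 genes with 5 or more peaks (132 of their 136 peaks), with positive values towards higher coordinates and colour for fold enrichment. TENM3 peaks run from 242 to 710 kb on a single side and PCDH10 peaks from 278 to 660 kb, whereas the CDH2, CDH4 and DSCAM peaks lie on both sides and mostly within 100 kb.

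Neighbouring peaks of the same gene were a median of 45.1 kb apart (95% confidence interval 36.1 to 64.2, 186 gaps). A gap of at most 10 kb joined 62 peaks into 28 runs at 23 genes. The run with most peaks was that of TENM3, with 4. Runs of 3 peaks were found at CDH2, CTNNAL1, NLGN3 and UNC5D. Gaps within a gene and runs were not counted over the whole list. The gap from a peak to the nearest peak of any gene had a median of 37.8 kb (95% confidence interval 29.6 to 45.2). Over all peaks that median was 37.3 kb (36.2 to 39.1). Only 8 peaks (2.80%) had another peak within 1 kb, against 5.53% of all peaks. They formed 4 pairs, at SEMA3A (112 bp apart), TENM2 (246 bp), EPHA4 (303 bp) and PLXNA4 (469 bp).

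Distance and strength were compared, since weakly supported peaks rest on few fragments. Among adhesion and guidance peaks, the median distance was 92.5 kb (95% confidence interval 72.3 to 138) at a −log10 q under 2, 47.0 kb (36.8 to 114) from 2 to 3 and 47.7 kb (34.4 to 89.6) at 3 or more. The matching shares beyond 100 kb were 48.1%, 40.0% and 28.9%. Over all peaks these shares were 16.4%, 18.0% and 17.3%, with medians of 24.3, 22.9 and 23.5 kb. By pileup, 28 of the 52 peaks with 7 fragments lay beyond 100 kb (53.8%, 95% confidence interval 40.5 to 66.7), and 18 of the 55 with 11 or more did (32.7%, 21.8 to 45.9). Across the 286 peaks the Spearman correlation of distance with fold enrichment was -0.24, and across all peaks it was -0.05, as a description of peaks from the same pooled libraries. The −log10 q classes share the pileup with the fold enrichment, so these are not separate measures. Peaks of the same gene also share a locus and are not independent. TENM3, PCDH10 and TENM2 had 12, 10 and 6 peaks beyond 100 kb, and no PCDH10 or TENM2 peak reached a −log10 q of 3. How far such genes shape the difference between classes was not tested.

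A list of 18 adhesion and guidance genes, chosen as of interest for the lens, was examined next. A part in the lens was not checked here for each gene, and CTNNA2, named above as a neural form, is among the 18. A peak was assigned to 11 of these and none was within 3 kb, where the shares over all protein-coding genes were 25.6% and 5.61%. All 18 belong to the families above, in which 99 of 188 genes (52.7%) had a peak and 7 (3.72%) had one within 3 kb. The count of 11 of 18 was thus near the share of the families from which the list was drawn. At this number of genes, the count of 0 says little. The 11 had 38 peaks, of which CDH2, SEMA3A and ROBO1 held 21. The peak closest to a TSS was that of CDH2 on chromosome 2 from 104812856 to 104812965, at 18.1 kb with a fold enrichment of 3.73. PLXNA1 had a peak on chromosome 12 from 10533748 to 10533901, at 235 kb with a fold enrichment of 3.48. CDH1, CTNNA1, CTNNB1, CTNND1, EPHA7, EPHB2 and NRP1 had none in the list.

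The cytoplasmic partners and neighbours of these families were examined as a second list, in which the gene table held 35 of 39 symbols. Of these, 16 were nearest to a peak, with 29 peaks, and 2 had a peak within 3 kb, beside 25.6% and 5.61% of all protein-coding genes. The count within 3 kb was thus near that of all genes. CASK, a scaffold that binds neurexins inside the cell, had a peak over its TSS on chromosome 1 from 113092557 to 113092781, with 16 fragments, 6.55-fold enrichment and −log10 q 7.46. CDC42, a small GTPase that organizes actin at junctions, had a peak 102 bp from its TSS with 8 fragments and 3.11-fold enrichment. TJP1, the tight junction scaffold, had 6 peaks, of which the nearest was 33.1 kb away with a fold enrichment of 4.97. The junction proteins JUP, DSP and VCL had 1 peak each, at 5483 bp, 23.0 kb and 32.2 kb and with fold enrichments of 4.79, 3.27 and 3.48.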

How the data were processed

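Members, gene lists and thresholds were chosen with earlier results of these data known. Reads had been trimmed by the authors with Trimmomatic, aligned to galGal6 (Ensembl release 96) with Bowtie2, and reduced to fragments under 120 bp outside mitochondrial and low-complexity sequence with SAMtools. Narrow peaks were called with MACS2 at a q of 0.05, with both HIF1α libraries pooled and both IgG libraries pooled as control. Tool versions are not given in the sources used here. The authors deposited the pileup as a signal in whole fragments, the fold enrichment as a ratio of pileup plus 1 to background plus 1, and −log10 p and −log10 q values. Positions in bp on galGal6, the nearest TSS, gene symbol and unsigned distance are also the authors'. No column belongs to a single library, and library depths are unknown.

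The background was computed from pileup and fold enrichment. Recomputing the Poisson p from it gave the deposited −log10 p within 0.00165 at 8369 peaks. Shares carry Wilson and medians rank-based 95% intervals, and pileups exact Poisson intervals (SciPy 1.17.1, pandas 2.3.3). No test was made, since peaks have no replicates. The scripts were tested on simulated data. Gene families were counted in the RefSeq table of the GRCg7b assembly, used for names alone, where 99 of the 100 symbols were found, with NLGN4X under the name NLGN4Y and ADGRF2 not found. Named were the peaks within 3 kb, the 10 highest by −log10 q, the strongest of each family, the 10 symbols with most peaks and the list of 18 genes chosen as of interest for the lens. A search for hypoxia response elements was planned and not run, as promoter and galGal6 sequences were not used here. An item withheld from the text is not reported here, and its peaks stay in the counts.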

Additional observations from a re-analysis of the deposited data

How the results depend on the processing

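No paired analysis was possible because peaks were called on pooled libraries and no column carries a replicate number, and leaving out a replicate was not possible for the same reason. Of 72 alternative values, 58 stayed within the interval of the reported value (for counts of peaks, within 1.5 times), and the 14 that moved are given here. With −log10 q limits of 2 and 3 there were 153 and 83 peaks, and the median distance was 47.7 kb in either case. The share beyond 100 kb was 34.0% and 28.9%, and fold enrichments had medians of 4.71 and 4.79. At these limits 41.5% and 27.1% of family genes were nearest to a peak. The share of all protein-coding genes was computed only without these limits (25.6%), so no matching share can be set beside them. The share of peaks with high IgG background was 6.02% with the −log10 q limit of 3, against 15.7% of all peaks at that limit. With a fold limit of 3 it was 1.07%, against 1.78% of all peaks. With limits of 1 and 10 kb in place of 3 kb, 1.05% and 11.5% of peaks were near a TSS. Leaving out peaks with high IgG background or several symbols, merging within 1 kb, and leaving out CTNNAL1 moved no value. Neither did leaving out UNC50 or ADGRB1 as well, which was chosen after seeing the data. The planned search for hypoxia response elements in promoters was not run. Over all peaks, the share beyond 100 kb with the same −log10 q limits was 17.7% and 17.3%. With 60.1% of the adhesion and guidance peaks at 7 to 9 fragments, such low counts limit how far weak peaks can be ranked.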
